A study of Mus musculus with 38 samples.

Results

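Dermal P2 cells are monocyte-derived cells of mouse ear skin, and the comparison described here sets 3 arrays of P2 cells from skin painted with DNFB (2,4-dinitrofluorobenzene, a contact sensitizer) against 3 arrays of P2 cells from untreated skin, 6 of the 38 arrays of the series. Arrays were chosen by their labels alone. All mice were wild-type female C57BL/6 animals aged 6 weeks. The DNFB group received 10 µl of 0.5% DNFB in acetone and olive oil, and ears were collected 3 days later. The steady-state group was untreated, so DNFB and its vehicle cannot be told apart. The P2 gate took live cells positive for CD11b, CD64, CCR2 and MHC class II, high for Ly6C and negative for CD24. The arrays of a group held RNA of separate pools of mice, from 5000 to 10000 cells each. Whether arrays of different populations came from the same pools is not known here. The other populations used for comparison were dermal P1 cells (the MHC class II negative counterpart of P2; 2 DNFB and 3 steady-state arrays) and dermal CD11b+ dendritic cells (3 DNFB and 3 steady-state arrays), from mice of the same strain, sex, age and treatments. Levels are also set beside those of blood Ly6C monocytes of untreated mice (CD11b+ Ly6Chigh, 3 arrays) and, for the order of levels, of all 13 populations, which add dermal P3 to P5 cells and migratory cells of the lymph node labelled CLN.

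Classical monocytes leave the blood through the receptor CCR2, enter skin and there acquire MHC class II as they differentiate towards macrophage-like or dendritic-cell-like states. Type I interferons act on such cells through a receptor whose signal reaches interferon-stimulated response elements in target promoters, while interleukin-4 and interleukin-13 act through STAT6 and induce the genes of alternative activation. DNFB is a hapten: it binds skin proteins and provokes contact hypersensitivity, in which monocytes are recruited to the painted site.

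Values are log2 intensities, so a difference of 1 is a 2-fold change. Over the 38 arrays values spanned 1.65 to 13.8, and the array medians lay between 4.39 and 4.65. Replicate arrays of P2 correlated at 0.967 to 0.981 after DNFB and at 0.965 to 0.977 at steady state (Pearson's r across genes, which are not independent replicates). A group mean below 4.31, the 40th percentile of all values, is called low signal here. A difference against low signal is given as fitted, and its exact size is not known. Besides the genes marked where they are described, this holds for Trem3, Tnfsf4 and Ffar2 at steady state and for Prc1 after DNFB. The number of arrays, 3 in each P2 group, limits the precision, and p-values measure the spread between pools.

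Transcripts of the sort markers were present. Ccr2 averaged 10.68 ± 0.15 after DNFB and 10.47 ± 0.32 at steady state (SD, n = 3 each). H2-Aa, an MHC class II chain, averaged 12.10 ± 0.09 after DNFB and 12.14 ± 0.16 at steady state, against 10.12 in steady-state P1 cells. Cd24a went against the surface phenotype, with 9.19 ± 0.51 after DNFB and 8.93 ± 0.37 at steady state in cells gated as CD24-negative. The CD11b+ dendritic cells of untreated dermis had a similar Cd24a level of 8.83.

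After DNFB, 402 of 19937 genes differed in P2 cells at an adjusted p under 0.05, which is 2.02% of the genes tested. Of these, 203 rose (1.02%) and 199 fell (0.998%). The split depended on the setting, with 151 rises and 186 falls when array medians were centred, 112 and 178 without steady-state replicate 3, and 204 and 139 without steady-state replicate 1. The rises were led by S100a9, the platelet-basic-protein chemokine gene Ppbp, the interferon-induced membrane gene Ifitm1 and the activating Fc receptor Fcgr4. The falls were led by the cartilage-associated genes Cytl1 and Chad, the chemokine gene Ccl17, the matrix inhibitor Timp3 and Retnla. In 385 of the 402 the arrays of the groups did not overlap, a separation seen in 14.2% of all genes. The median difference over all genes was 0.03. A higher mean after DNFB was found in 11080 of the 19937 genes, and 2368 had an unadjusted p under 0.05 in limma. List counts of these kinds below are to be read beside these totals. When the 6 P2 arrays were fitted alone, 80 genes were called (23 rises and 57 falls), 60 of them among the 402, and 36 of the 96 named calls were kept. Those kept included S100a9, Ifitm1, Fcgr4, Slfn4, Ifi213, Slfn1, Ifit2, Oas1a, Oas2, Ms4a6d, Ccl17, Mgl2, Itgax, Cxcl9, Mt2, Cytl1, Chad, Timp3 and Col8a1, and not Ppbp, Ifit3, Saa3, Mx1, Retnla, Irf4, Ccl22, Fcgr1, Ccr1, Il4ra, Mmp12, Hpgd or Top2a.

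**Figure D1:**
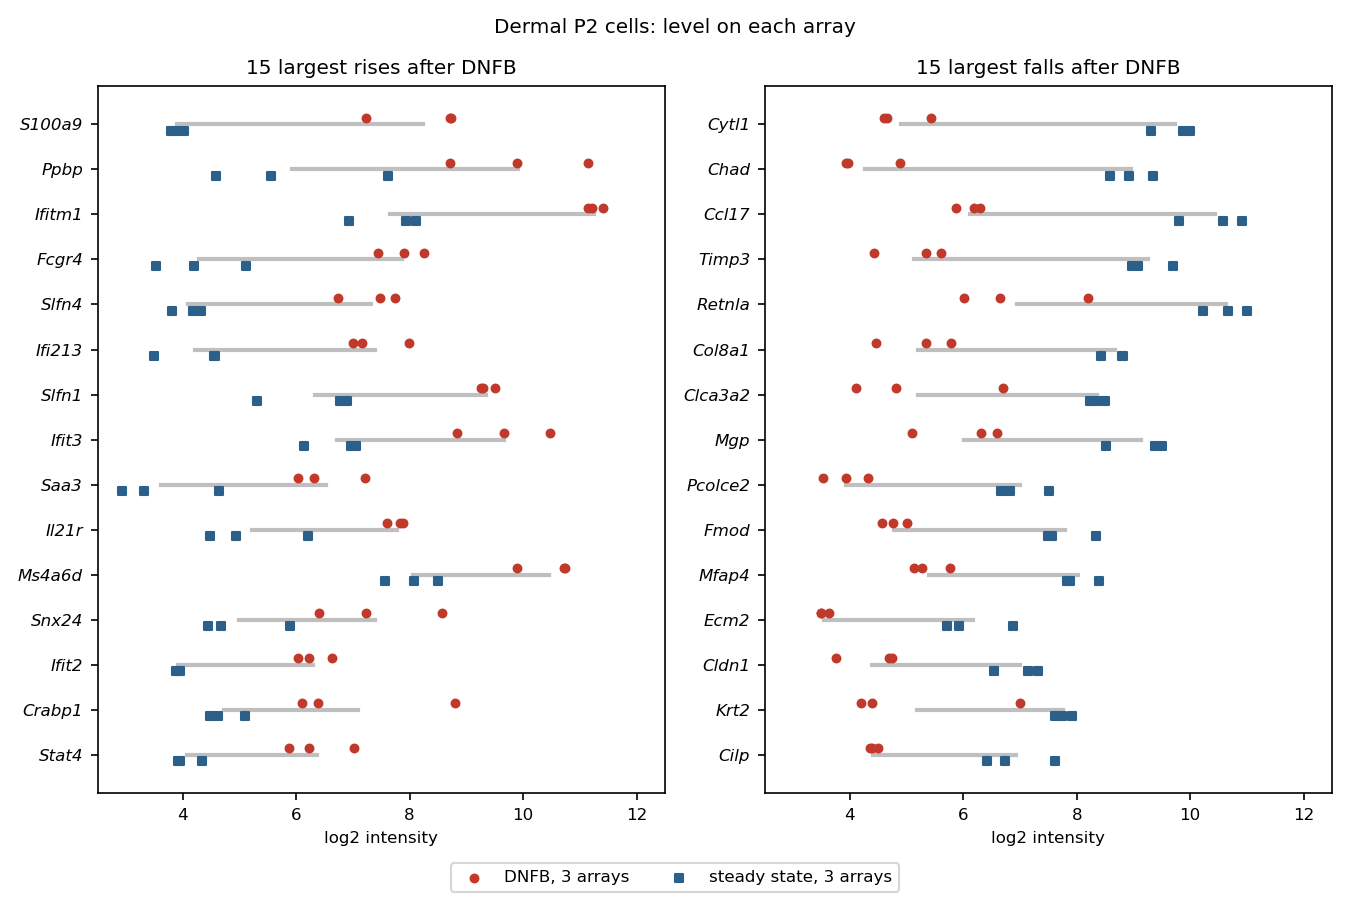
Log2 intensity of the 15 largest rises (left panel) and 15 largest falls (right panel) in dermal P2 cells, among named genes past the test whose arrays do not overlap. Red circles are the 3 DNFB arrays, blue squares the 3 steady-state arrays, and grey lines join the group means. The differences of the rises reach 4.32 (S100a9) and those of the falls -4.83 (Cytl1).

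Promoters are shown for 4 genes that rose and hold an interferon-type motif and for 2 alternative activation genes that fell and hold a STAT6-type motif. They were picked for these motifs among genes that the results below turn on. Of the 7 alternative activation genes that fell, only these 2 were found to hold the STAT6-type motif. The sequences are RefSeq's for GRCm38.p6, 250 bases before to 50 after the gene's start, 5′ to 3′ on the gene's strand. Capitals mark, in the first 4, the core letters of the interferon-stimulated response element (GAAA, any 2 bases, GAAA, on either strand) and, in the last 2, a STAT6-type palindrome (TTC, any 4 bases, GAA). They lie at chr19:34583279-34583578 on the plus strand (Ifit3), chr5:120907476-120907775 on the minus strand (Oas1a), chr1:171018676-171018975 on the plus strand (Fcgr4), chr1:173599223-173599522 on the minus strand (Ifi213), chr8:94810203-94810502 on the plus strand (Ccl17) and chr16:48842359-48842658 on the plus strand (Retnla).
Ifit3: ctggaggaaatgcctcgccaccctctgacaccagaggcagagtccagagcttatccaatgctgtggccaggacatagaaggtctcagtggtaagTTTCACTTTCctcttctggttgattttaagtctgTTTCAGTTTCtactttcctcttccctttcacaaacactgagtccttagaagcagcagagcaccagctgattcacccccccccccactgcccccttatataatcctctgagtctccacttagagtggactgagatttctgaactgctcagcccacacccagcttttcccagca
Oas1a: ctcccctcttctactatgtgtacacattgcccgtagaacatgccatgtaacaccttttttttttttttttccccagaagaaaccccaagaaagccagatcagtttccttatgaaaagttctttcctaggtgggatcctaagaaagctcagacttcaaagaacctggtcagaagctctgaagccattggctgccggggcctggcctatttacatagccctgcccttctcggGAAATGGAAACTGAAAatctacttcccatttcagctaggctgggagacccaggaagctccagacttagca
Fcgr4: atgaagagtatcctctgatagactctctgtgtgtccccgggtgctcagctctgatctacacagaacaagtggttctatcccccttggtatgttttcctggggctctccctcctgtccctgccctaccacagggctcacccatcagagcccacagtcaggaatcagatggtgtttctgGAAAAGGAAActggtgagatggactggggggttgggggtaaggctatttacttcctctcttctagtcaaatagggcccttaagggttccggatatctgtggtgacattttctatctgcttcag
Ifi213: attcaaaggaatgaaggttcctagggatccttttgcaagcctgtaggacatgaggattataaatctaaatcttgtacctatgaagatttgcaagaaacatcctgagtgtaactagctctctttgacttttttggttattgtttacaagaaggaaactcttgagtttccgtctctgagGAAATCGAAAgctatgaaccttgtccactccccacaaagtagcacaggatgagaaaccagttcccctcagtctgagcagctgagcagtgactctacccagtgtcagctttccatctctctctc
Ccl17: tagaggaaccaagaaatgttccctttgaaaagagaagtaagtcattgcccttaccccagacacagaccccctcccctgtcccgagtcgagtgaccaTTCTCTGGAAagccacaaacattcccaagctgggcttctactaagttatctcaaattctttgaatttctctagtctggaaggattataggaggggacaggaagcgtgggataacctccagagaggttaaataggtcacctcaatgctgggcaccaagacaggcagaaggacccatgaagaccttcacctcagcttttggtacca
Retnla: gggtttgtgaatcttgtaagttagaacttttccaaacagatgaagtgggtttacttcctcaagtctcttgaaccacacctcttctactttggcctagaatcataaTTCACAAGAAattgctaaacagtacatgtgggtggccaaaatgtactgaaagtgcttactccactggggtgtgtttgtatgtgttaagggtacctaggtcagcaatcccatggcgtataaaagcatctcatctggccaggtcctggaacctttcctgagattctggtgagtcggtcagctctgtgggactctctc

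The response-element core was present in the promoter of 25 of 161 genes that rose and had a promoter sequence (15.5%), in 8 of 162 that fell (4.94%) and in 607 of all 15613 genes tested that had one (3.89%). In Ifit3 and Oas1a it occurred at 2 positions. The STAT6-type palindrome was present in 9.32% of the promoters of genes that rose, 7.41% of those of genes that fell and 7.30% of all promoters. Motifs were counted separately on both strands, so bases of one may also belong to another. A match describes the letters of the window and is not a bound site.

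Interferon-stimulated genes were higher after DNFB. Of the 22 measured genes of the type I interferon response list, 12 rose and none fell, where 1.02% of all genes rose. The list median was 1.23, against 0.03 over all genes tested. All 22 had a higher mean after DNFB, where 11080 of all 19937 genes did. With the 6 P2 arrays alone 5 of them rose. The 10 that did not pass the test had differences from 0.42 upward.

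Ifit3, a member of the interferon-induced tetratricopeptide family, stood at 8.83, 10.46 and 9.66 after DNFB, against 7.05, 6.97 and 6.14 at steady state. Its difference was 2.93 ± 0.44 (SE), with limma's adjusted p = 0.00017. Oas1a encodes a synthetase of 2'-5' oligoadenylates, which activate RNase L. Oas1a measured 9.10, 9.25 and 8.73 after DNFB, against 7.30, 6.74 and 6.40 at steady state, a difference of 2.22 ± 0.25 (limma's adjusted p = 4.9e-06). Both genes had every DNFB array above every steady-state array.

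Ifit2 had 6.03, 6.62 and 6.23 after DNFB, against 3.92, 3.89 and 3.95 at steady state, where it was low signal. The dynamin-like antiviral GTPase gene Mx1 had 6.51, 7.68 and 7.10 after DNFB, against 5.58, 4.69 and 4.67 at steady state. Oas2, another synthetase gene, had 7.66, 7.31 and 8.02 after DNFB, against 5.68, 5.76 and 5.34 at steady state. Their groups did not overlap either, and the differences were 2.37 for Ifit2, 2.12 for Mx1 and 2.07 for Oas2. Oas, Ifit, Schlafen and Ifi200 genes have near-identical relatives whose probes can share signal, so the value of a single member is uncertain.

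Among the largest rises were further genes of interferon-induced families. Ifitm1 stood at 11.22, 11.14 and 11.40 after DNFB, against 6.94, 8.10 and 7.93 at steady state (difference 3.60 ± 0.41, limma's adjusted p = 5e-06). Ifi213, an Ifi200-family gene, had 7.16, 7.01 and 7.99 after DNFB, against 4.56, 4.58 and 3.50 at steady state. The Schlafen gene Slfn4, of a family linked to growth control in immune cells, had 6.73, 7.74 and 7.49 after DNFB, against 3.80, 4.31 and 4.17 at steady state. Slfn1 had 9.26, 9.50 and 9.30 after DNFB, against 6.77, 6.90 and 5.31 at steady state. All DNFB arrays lay above all steady-state arrays for these 4 genes, and Ifi213 and Slfn4 were low signal at steady state.

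The interferon-gamma list did not move as one. Of its 14 measured genes, 1 rose and 1 fell, while 10 had a higher mean after DNFB and 6 an unadjusted p under 0.05 in limma. Over all 19937 genes the latter counts were 11080 and 2368. Irf8, a transcription factor of the monocyte lineage, rose by 1.28 ± 0.24 (limma's adjusted p = 0.0022). Cxcl9, a CXCR3 ligand, measured 6.37, 6.69 and 7.20 after DNFB, against 9.48, 9.07 and 9.23 at steady state, a difference of -2.50 ± 0.55 (limma's adjusted p = 0.011). In MHC class I processing 2 of 13 genes rose: the proteasome activator gene Psme1 by 0.55 and the immunoproteasome gene Psmb9 by 0.60.

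**Figure D2:**
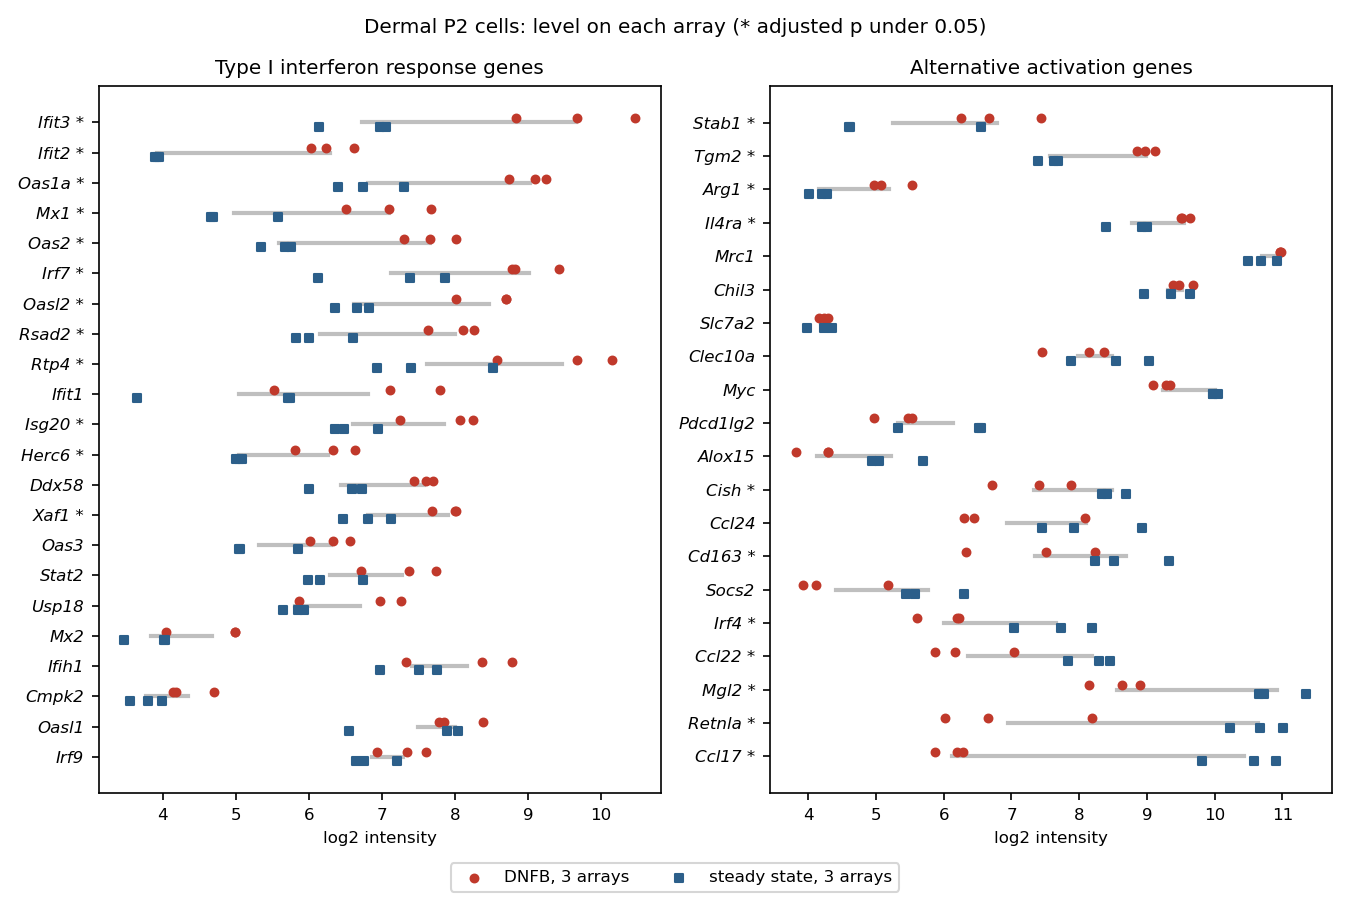
Log2 intensity on each P2 array of the type I interferon response genes (left panel) and the alternative activation genes (right panel), ordered by difference. Red circles are DNFB arrays, blue squares steady-state arrays, grey lines join group means, and asterisks mark an adjusted p under 0.05. In the left panel all 22 genes have the higher mean after DNFB, while in the right panel 4 rose and 7 fell.

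Receptors of the monocyte and macrophage surface rose in part. Fcgr4, an activating receptor for IgG, stood at 7.43, 8.26 and 7.89 after DNFB, against 5.12, 4.20 and 3.54 at steady state (difference 3.58 ± 0.46, limma's adjusted p = 1.3e-05). Its steady-state mean of 4.29 was low signal. Fcgr1 encodes CD64, on which the cells of both groups were gated. Fcgr1 had 9.96, 9.74 and 10.10 after DNFB, against 8.81, 7.66 and 7.49 at steady state (difference 1.95 ± 0.34, limma's adjusted p = 0.0011). These were the 2 of 8 Fc receptor genes that rose, and the inhibitory receptor gene Fcgr2b differed by 0.34 without passing the test. The groups did not overlap in Fcgr4 or Fcgr1.

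Of 20 pattern recognition receptor genes 3 rose and none fell. They were the amplifying receptors Trem3, by 1.67 ± 0.22, and Trem1, by 1.67 ± 0.41, and the bacterial RNA sensor Tlr13, by 1.81 ± 0.47. Of 11 chemokine receptor genes only Ccr1, a receptor of inflammatory CC chemokines, passed the test, with a rise of 1.83 ± 0.36 (limma's adjusted p = 0.0032). Ms4a6d, a membrane protein gene of monocytes and macrophages, measured 9.89, 10.73 and 10.74 after DNFB, against 8.51, 8.08 and 7.57 at steady state. Il21r, the interleukin-21 receptor gene, had 7.88, 7.60 and 7.83 after DNFB, against 6.22, 4.49 and 4.94 at steady state.

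The macrophage core list had 4 rises and no falls among 23 genes, with a median of 0.39. Besides Fcgr1 these were the scavenger receptor Msr1 (1.35), Ms4a7 (1.90) and the lysosomal protease gene Lgmn (0.84). The arrays of Ms4a7 overlapped between the groups, and with the 6 P2 arrays alone none of these 4 genes kept the call. The macrophage core list mean was 8.51, 9.18 and 8.93 on the DNFB arrays, against 8.84, 8.13 and 7.90 at steady state. In the classical monocyte list 3 of 14 genes rose and 1 fell. Vcan, a proteoglycan of monocytes, rose by 1.71, Ifitm6 by 2.16 and haptoglobin (Hp) by 1.30, whereas the collagenase gene Mmp8 fell by 1.32. Of 20 resident perivascular-type macrophage genes 1 rose (Stab1) and 1 fell (Cd163), while 10 had an unadjusted p under 0.05 in limma. Their list mean varied between arrays of a group, with 7.38, 8.78 and 7.93 after DNFB, against 8.76, 7.60 and 7.16 at steady state. The complement factor B gene Cfb rose by 1.81 ± 0.34, and C1qa differed by 0.90 with limma's adjusted p = 0.31.

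Of the 12 alarmin and granule genes 2 rose, S100a9 and Saa3. S100a9, a calcium-binding alarmin of myeloid cells, stood at 7.24, 8.73 and 8.72 after DNFB, against 3.79, 4.03 and 3.88 at steady state, where it was low signal. The acute-phase gene Saa3 had 6.03, 6.31 and 7.22 after DNFB, against 4.63, 3.32 and 2.92 at steady state, also low signal, a difference of 2.90 ± 0.37 (limma's adjusted p = 1.3e-05). S100a8, the partner of S100a9, was spread widely, with 7.00, 10.01 and 8.76 after DNFB, against 7.26, 6.24 and 3.82 at steady state. Its groups overlapped and limma's adjusted p was 0.19.

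S100a8 and S100a9 also belong to the neutrophil list of 13 genes. The neutrophil list mean was 4.92, 5.32 and 5.21 on the DNFB arrays, against 4.48, 4.56 and 4.32 at steady state. S100a9 was the only member of that list to pass. Of the 13 genes, 11 had a higher mean after DNFB, where 11080 of all 19937 genes did. An unadjusted p under 0.05 in limma was found for 4 of the 13, S100a9 included, and for 2368 of all genes. The neutrophil surface gene Ly6g, looked up after its values were seen, stayed at low signal, with 2.84 after DNFB and 2.78 at steady state. The part of neutrophils in these differences was not tested. S100a9 was also close to low signal in blood monocytes, at 4.38.

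Chemokine genes moved in both directions. Ppbp had 8.71, 11.13 and 9.89 after DNFB, against 7.62, 5.55 and 4.59 at steady state, a difference of 3.99 ± 0.70 (limma's adjusted p = 0.0012). Ppbp is also abundant in platelets. Of the other platelet genes, Pf4 differed by 0.84 and Gp9 by -0.17, neither past the test. Itga2b was at 4.63, 4.72 and 4.45 after DNFB, against 4.58, 5.20 and 4.74 at steady state. The neutrophil-attracting Cxcl5 rose by 1.09 ± 0.12 from low signal (limma's adjusted p = 4.9e-06). The monocyte attractant Ccl12 rose by 3.10 ± 0.79 with overlapping arrays (limma's adjusted p = 0.031), and leaving out any of 4 P2 arrays ended that call.

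Among cytokine genes 2 of 23 rose, Il18 by 2.14 and the vascular growth factor Vegfa by 0.95. Il10, a cytokine that restrains inflammation, had 9.75, 11.46 and 11.11 after DNFB, against 9.94, 9.10 and 9.75 at steady state (difference 1.18, limma's adjusted p = 0.066). Il6 had 6.17, 6.27 and 7.71 after DNFB, against 8.65, 8.60 and 7.69 at steady state (difference -1.60, limma's adjusted p = 0.067). Neither passed the test.

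The alternative activation list split, with 7 falls and 4 rises among 20 measured genes and a median of -0.95. With the 6 P2 arrays alone the counts were 2 falls and 1 rise. The chemokine Ccl17, a CCR4 ligand, stood at 6.19, 5.87 and 6.29 after DNFB, against 10.58, 10.91 and 9.81 at steady state, 19.9-fold lower after DNFB. Its difference of -4.31 ± 0.30 carried limma's adjusted p = 4.6e-10. Ccl22, the other CCR4 ligand, had 6.17, 7.04 and 5.87 after DNFB, against 8.29, 7.84 and 8.45 at steady state (difference -1.83 ± 0.35, limma's adjusted p = 0.0026). No array overlapped between the groups for either ligand.

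Retnla, a secreted product of alternatively activated macrophages, measured 6.02, 6.65 and 8.19 after DNFB, against 11.01, 10.66 and 10.23 at steady state (difference -3.68 ± 0.45, limma's adjusted p = 1.1e-05). The lectin gene Mgl2 had 8.90, 8.14 and 8.64 after DNFB, against 11.36, 10.74 and 10.66 at steady state (difference -2.36 ± 0.35, limma's adjusted p = 0.00015). Irf4, a transcription factor required by some dendritic cells and by alternative activation, had 6.22, 5.61 and 6.19 after DNFB, against 8.19, 7.03 and 7.73 at steady state (difference -1.65 ± 0.29, limma's adjusted p = 0.00098). In each of these genes the steady-state arrays were all higher.

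The members that rose were the receptor chain Il4ra (0.78), Arg1, Tgm2 (1.42) and Stab1 (1.53). Mrc1, the mannose receptor gene, did not pass, with 10.97 after DNFB and 10.70 at steady state, and nor did Chil3, with 9.51 after DNFB and 9.31 at steady state. The macrophage elastase gene Mmp12 had 6.60, 6.74 and 6.19 after DNFB, against 8.36, 10.21 and 8.30 at steady state. Hpgd, which inactivates prostaglandins, had 7.52, 6.52 and 7.68 after DNFB, against 9.86, 9.39 and 9.11 at steady state. The differences were -2.44 ± 0.33 for Mmp12 and -2.21 ± 0.33 for Hpgd.

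**Figure D3:**
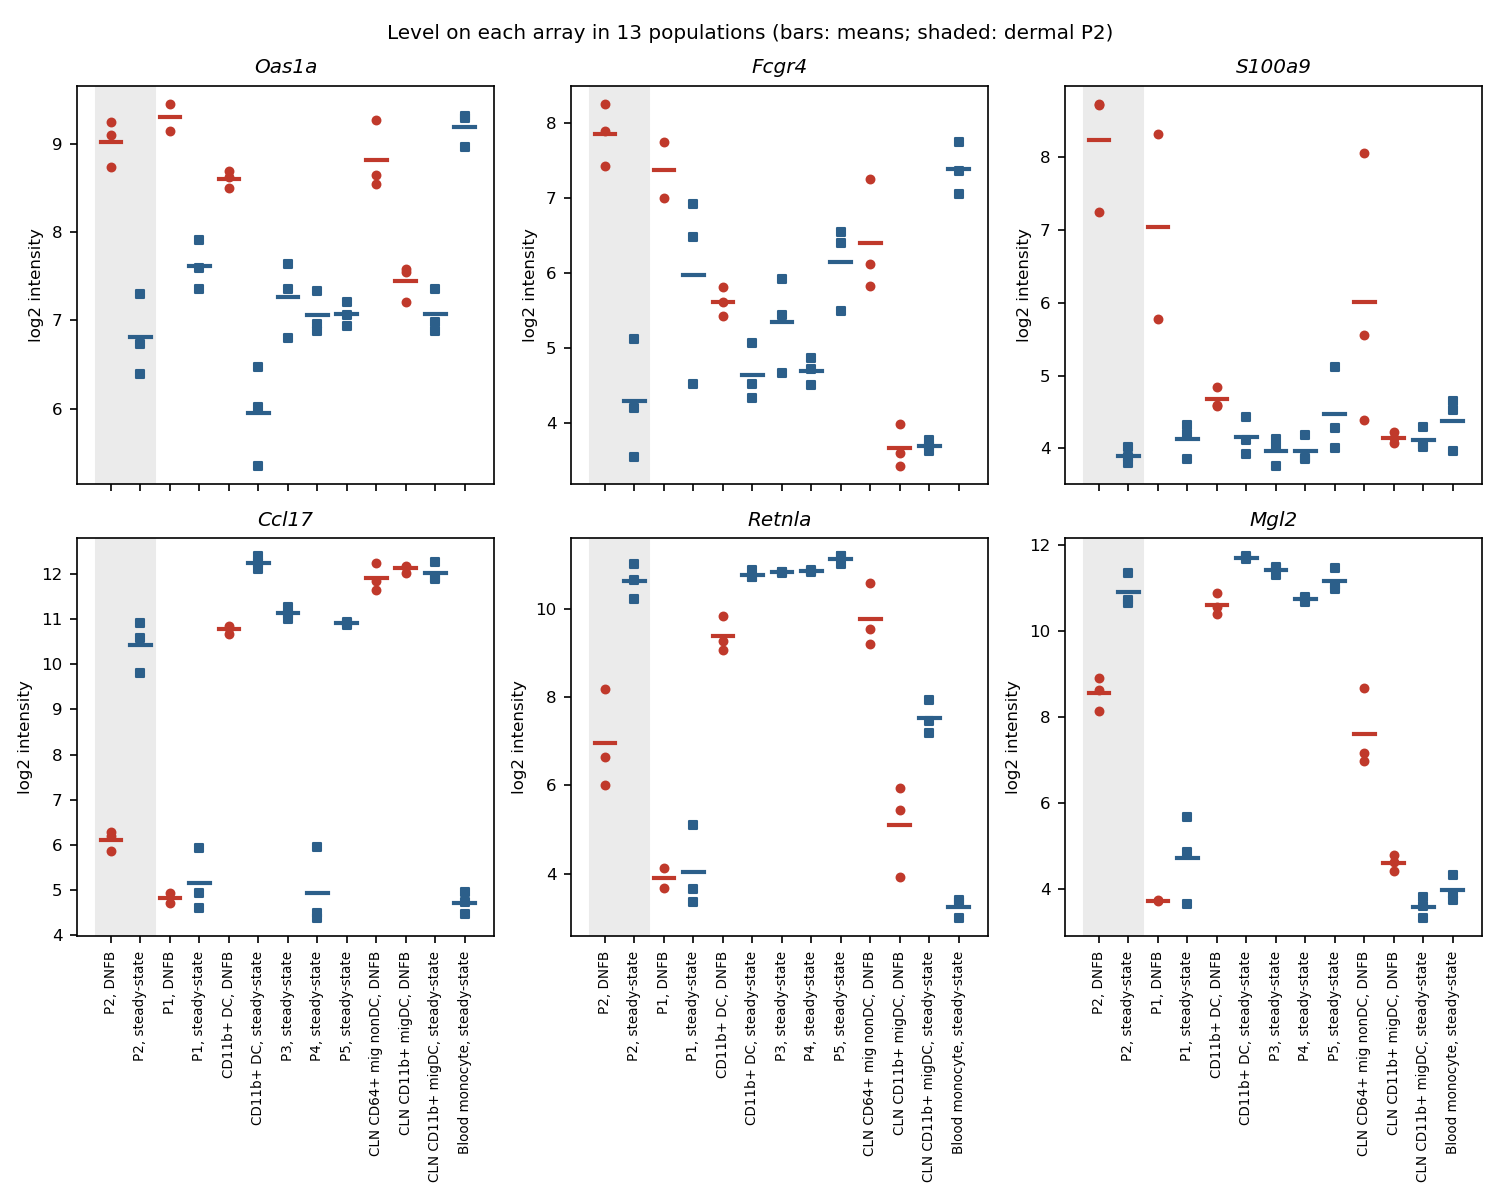
Log2 intensity of 3 genes that rose (Oas1a, Fcgr4, S100a9) and 3 that fell (Ccl17, Retnla, Mgl2) on every array of the 13 populations. Red circles are DNFB arrays, blue squares steady-state arrays, bars are group means and the shaded columns are dermal P2. Ccl17 averaged 6.12 in DNFB P2 cells, 10.43 in steady-state P2 cells and 4.73 in blood monocytes.

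Across the 13 populations, Ccl17, Retnla and Mgl2 were high in steady-state P2 cells and low in blood monocytes and P1 cells. Ccl17 averaged 6.12 ± 0.22 in DNFB P2 cells, against 10.43 ± 0.57 in steady-state P2 cells (SD, n = 3 each). Steady-state P1 cells had 5.16 ± 0.69 and blood monocytes 4.73 ± 0.25, both below the DNFB level of P2. Dermal CD11b+ dendritic cells kept more, with 10.77 ± 0.09 after DNFB and 12.24 ± 0.14 at steady state. Retnla averaged 6.96 ± 1.12 in DNFB P2 cells and 10.63 ± 0.39 in steady-state P2 cells, against 4.04 ± 0.93 in steady-state P1 cells and 3.25 ± 0.23 in blood monocytes.

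Oas1a and Fcgr4 showed the converse order. Oas1a averaged 9.03 ± 0.26 in DNFB P2 cells and 6.81 ± 0.45 in steady-state P2 cells, with 9.19 ± 0.20 in blood monocytes and 7.62 ± 0.28 in steady-state P1 cells. The DNFB P2 and blood values lay within each other's spread. Fcgr4 averaged 7.86 ± 0.41 in DNFB P2 cells and 4.29 ± 0.80 in steady-state P2 cells, with 7.39 ± 0.34 in blood monocytes. Of the 203 genes that rose in P2, 47 had their highest mean of all populations in blood monocytes, 47 in DNFB P1 cells and 40 in DNFB P2 cells. Of the 199 that fell, 56 were highest in steady-state P2 cells and 57 in steady-state dermal CD11b+ dendritic cells. These genes were selected on the P2 arrays themselves, so the counts of 40 and 56 partly follow from that selection. The shares over all genes tested are not given here, so the counts are descriptions only.

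None of the 10 measured MHC class II genes was called, and the list median was -0.05. Of the 10, 3 had an unadjusted p under 0.05 in limma, where 2368 of all 19937 genes did. The difference of H2-Aa was -0.04 with a 95% interval of -0.32 to 0.24, and that of H2-Ab1 0.09 with an interval of -0.21 to 0.40. H2-Eb1 differed by -0.33, with an interval of -0.60 to -0.07 and limma's adjusted p = 0.25. Since MHC class II was part of the gate, these values are not independent of the sort.

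Of 16 conventional dendritic cell genes, Itgax and Irf4 fell and Kmo, a kynurenine pathway enzyme, rose by 1.58. Itgax, which encodes CD11c, had 6.26, 5.78 and 6.29 after DNFB, against 7.91, 7.79 and 7.39 at steady state (difference -1.58 ± 0.20, limma's adjusted p = 1.1e-05). In the dendritic cell maturation list only Ccl17 and Ccl22 fell among 18 genes and none rose. Of 13 costimulatory and checkpoint ligands, Tnfsf4 (OX40 ligand, 1.57) and Lgals9 (1.06) rose. Cd80 differed by 0.83 without passing.

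Of 29 cell cycle genes 4 fell and none rose, with a median of -0.56. With the 6 P2 arrays alone none of the 4 kept the call. In limma's fit of all arrays 10 of the 29 had an unadjusted p under 0.05, where 2368 of all 19937 genes did. Top2a, the DNA topoisomerase of dividing cells, had 4.81, 4.91 and 5.06 after DNFB, against 6.72, 6.01 and 6.11 at steady state (difference -1.36 ± 0.25, limma's adjusted p = 0.0017). The proliferation marker Mki67 fell by 1.04, the mitotic kinase gene Cdk1 by 0.88 and the spindle midzone gene Prc1 by 1.22. Bulk arrays cannot tell fewer dividing cells from less RNA per cell.

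Stress and signalling genes contributed a few falls. The metallothioneins Mt2, which binds zinc and copper, and Mt1 fell by 1.75 ± 0.29 and 0.83 ± 0.20, and Slc48a1, a haem transporter, by 1.47 ± 0.24. They were the 3 falls among 18 genes of the Nrf2 and metallothionein list. In the NF-kB list 2 of 15 fell, the adhesion target Icam1 by 0.85 and the subunit gene Rela by 0.80. The immediate early genes Egr2 (1.09) and Jund (0.57) fell among 19. Of 20 glycolysis and hypoxia genes 2 rose, the hypoxia factor Hif1a by 1.25 ± 0.22 and the glycolytic kinase Pgk1 by 0.67 ± 0.17. None of 21 respiratory chain genes and none of 16 cholesterol genes passed, with medians of 0.03 and -0.22. Of them 3 and 2 had an unadjusted p under 0.05 in limma, where 2368 of all 19937 genes did.

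**Figure D4:**
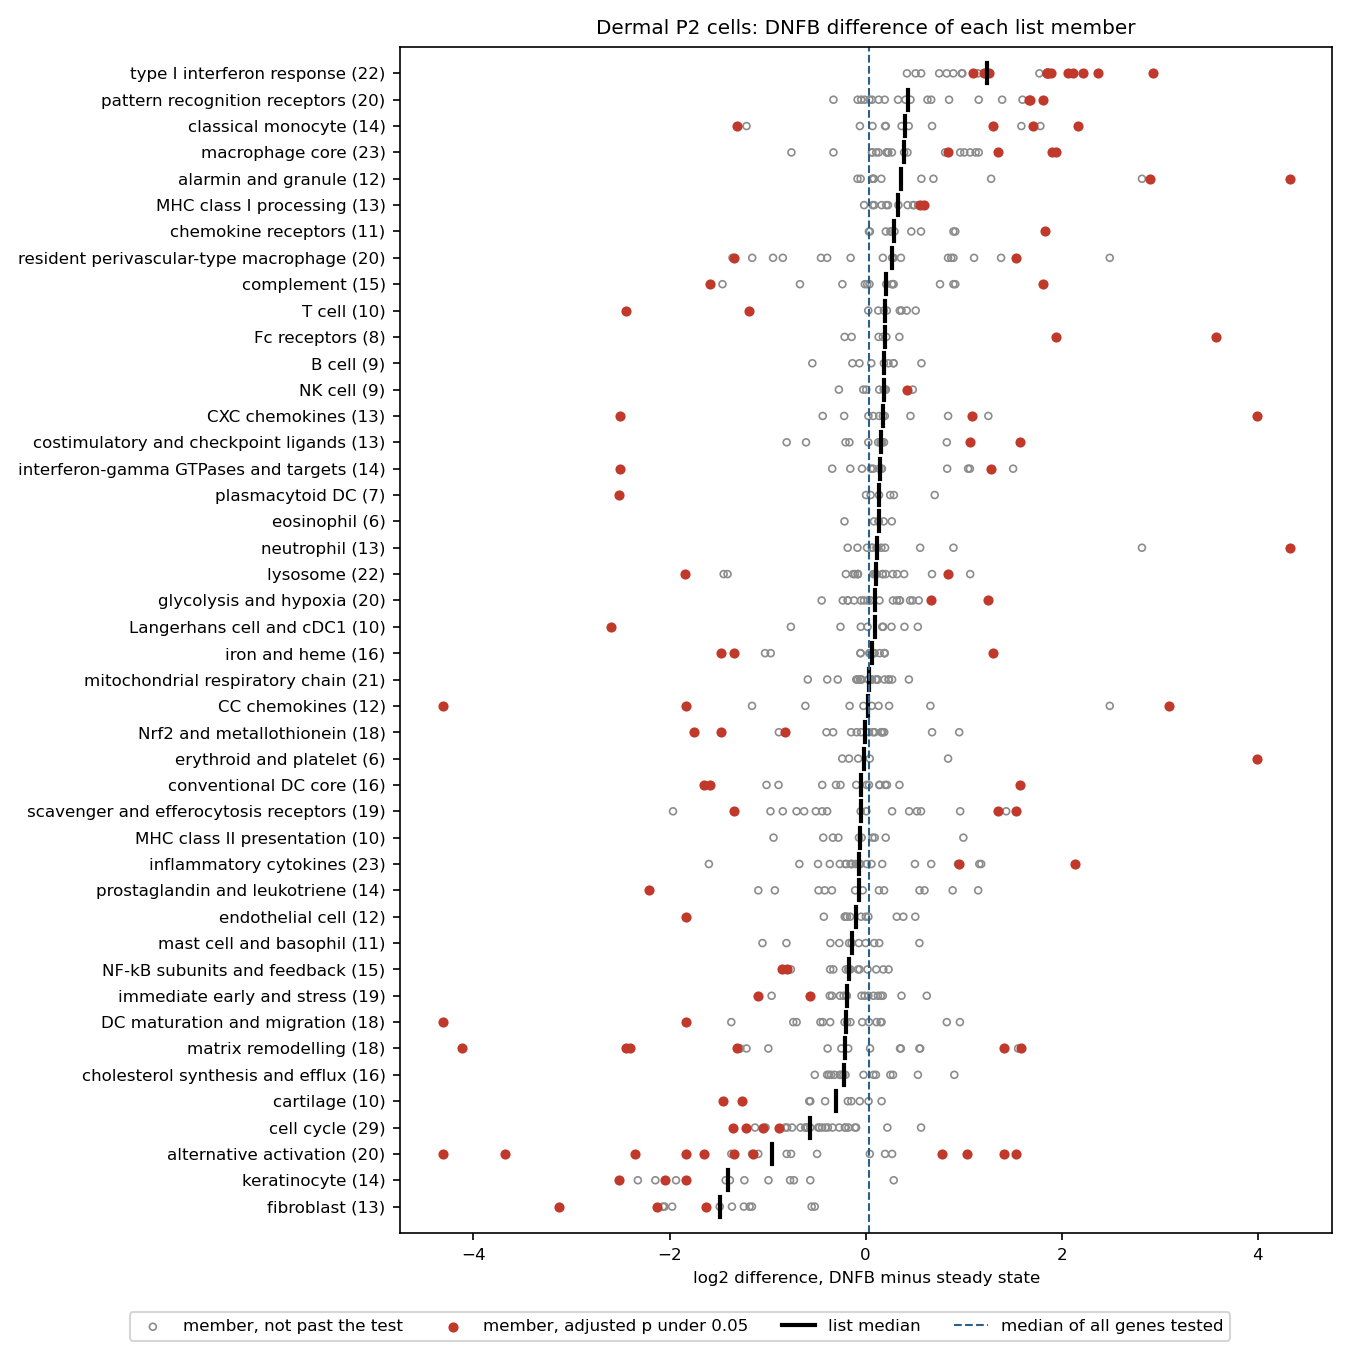
Log2 difference, DNFB minus steady state, of every measured member of 44 gene lists in dermal P2 cells, with the number measured in brackets. Filled red circles passed an adjusted p of 0.05, open circles did not, black bars are list medians and the dashed line is the median of all genes. The type I interferon list has the highest median (1.23) and the fibroblast list the lowest (-1.49).

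Transcripts of skin cells other than myeloid cells were measured in the sorted cells of both groups. The fibroblast list mean was 6.95, 6.72 and 7.15 on the DNFB arrays, against 8.45, 8.71 and 8.40 at steady state. All 13 of its genes had a lower mean after DNFB, where 8857 of all 19937 genes did. Of the 13, 3 fell: the collagen gene Col1a2 by 2.12, the mineralization inhibitor Mgp by 3.13 and the matrix glycoprotein gene Sparc by 1.63. The keratinocyte list mean was 7.78, 6.52 and 5.96 on the DNFB arrays, against 7.77, 8.31 and 8.38 at steady state. Krt15, Ly6d and Perp fell among its 14 genes, and the first DNFB array lay at the steady-state level of that list. In blood monocytes the means were 4.40 for the fibroblast list and 4.50 for the keratinocyte list.

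Several of the largest falls were matrix genes. Cytl1, a secreted protein gene known from cartilage, had 4.60, 4.66 and 5.42 after DNFB, against 9.87, 10.00 and 9.30 at steady state. Chad, the cartilage protein chondroadherin, had 3.98, 3.93 and 4.89 after DNFB, against 9.35, 8.93 and 8.59 at steady state. Both were also high in the other steady-state dermal populations (Cytl1 8.89 in P1 and 8.76 in dendritic cells) and low in blood monocytes (Cytl1 4.57). The differences were -4.83 ± 0.63 for Cytl1 and -4.69 ± 0.66 for Chad, whose DNFB mean was low signal. Col8a1 differed by -3.48, Timp3 by -4.12, Fmod, a collagen-binding proteoglycan, by -3.01 and Mgp by -3.13.

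Of 18 matrix remodelling genes 2 rose and 4 fell, and of 10 cartilage genes 2 fell, with list means of 4.32, 4.14 and 4.14 after DNFB, against 4.51, 4.78 and 4.65 at steady state. When the means of these keratinocyte and fibroblast lists were added to the model, 165 genes were called (102 rises and 63 falls) and 106 of the 402 were among them. Of 96 named genes called in P2, 36 kept an adjusted p under 0.05 there, among them Ccl17, Retnla, Mgl2, Irf4, Itgax, Oas1a, Ifit3, S100a9, Saa3, Fcgr4, Cytl1 and Chad. The genes that lost the call there, at a difference close to the one reported, included Cxcl9 (-2.78), Ccl22 (-1.73), Mki67 (-1.10) and Irf8 (1.13). Others of this kind were Il4ra (0.73), Icam1 (-0.78), Psme1 (0.48), Mmp8 (-1.265) and Lgals9 (1.13). Those that lost it at a smaller difference included Ppbp (3.23), Fcgr1 (1.48), Mt2 (-1.43), Ccr1 (1.17) and Hif1a (0.93). Timp3 (-1.92), Fmod (-1.45) and Mgp (-1.90) also lost it, at differences far smaller than the reported -4.12, -3.01 and -3.13. For members of the keratinocyte and fibroblast lists this model gives no information, since their own list means are in it. Type I interferon rises numbered 7 in that fit, while the macrophage core and classical monocyte lists had 0 rises each. The alternative activation list had 5 falls and 0 rises there. Besides Fcgr1, the calls lost there included Msr1 (0.97), Ms4a7 (1.30), Lgmn (0.69), Vcan (1.34), Hp (1.315) and Ifitm6 (1.37).

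Markers of other cell types were called at shares above the 2.02% of all genes in some lists and not at all in others. The shares called were 20.0% of T-cell, 14.3% of plasmacytoid, 11.1% of NK, 10.0% of Langerhans cell and cDC1 and 8.33% of endothelial genes. These lists are short, and such counts do not measure how much of their RNA was present. The T-cell list mean was 4.98 after DNFB and 5.12 at steady state. Those means were 4.39 and 4.29 for B cells, 4.23 and 4.42 for mast cells and basophils, and 3.77 and 3.67 for eosinophils. The T-cell list had 2 falls among 10, the adhesion receptor Cd2 by 2.45 and the cytokine receptor Il7r by 1.18, while Cd3d was low signal in both groups. No B-cell, mast-cell or eosinophil marker was called among 9, 11 and 6 genes, of which 1 B-cell gene and none of the others had an unadjusted p under 0.05 in limma. Of 12 endothelial genes only Flt1, a VEGF receptor, passed, with a fall of 1.83, and of 9 NK genes only Eomes, at low signal in both groups. Among Langerhans cell and cDC1 genes Cldn1, a tight junction gene, fell by 2.60, and among plasmacytoid genes Ly6d, already counted with the keratinocyte genes. The part of these cells in the P2 differences was not tested. Of the 96 named calls, 52 were kept whichever of the 6 P2 arrays was left out. Besides Ccl12, the genes described here that lost the call in at least 1 of these fits were Mgp, Cldn1, Psmb9, Il18, Vegfa, Hp, Mmp8, Ifitm6, Msr1, Ms4a7, Lgmn, Stab1, Cd163, Kmo, Lgals9, Tnfsf4, Trem1, Tlr13, Rela, Egr2, Jund, Mt1, Pgk1, Mki67, Cdk1, Prc1, Tgm2, Ly6d, Perp, Col1a2, Sparc, Il7r and Eomes. Of the lists not described above, lysosome genes had 1 rise and 1 fall among 22, scavenger receptors 2 rises and 1 fall among 19, complement genes 1 and 1 among 15, iron and haem genes 1 rise and 2 falls among 16, and prostaglandin genes 1 fall among 14.

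Whether the DNFB difference of P2 differs from that of P1 was tested as a difference of differences. At an adjusted p under 0.05, 11 genes differed (0.0552% of those tested), all with the more negative change in P2 (0.0552%) and none with the more positive (0.0%). At an unadjusted p under 0.05 limma gave 1262, of which 511 were more positive in P2. The direction depended on the model. With the keratinocyte and fibroblast list means added, 66 genes were called, 46 more positive and 20 more negative in P2. Ccl17 changed by -4.31 in P2 and -0.33 in P1, a difference of -3.98 ± 0.46 (limma's adjusted p = 3.2e-05). Itgax changed by -1.58 in P2 and 0.48 in P1, and Slc27a3, a fatty acid transporter gene, by -2.50 in P2 and 0.20 in P1. Ccl17, Itgax and Slc27a3 kept the call whichever array was left out.

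Retnla differed by -3.54 (limma's adjusted p = 0.033), Gfra2 by -2.09, Top2a by -2.04 and Fn3krp by -2.32. These 4 lost the call in at least 1 of the leave-one-out fits. In steady-state P1 cells Retnla averaged 4.04, which is low signal, and Ccl17 5.16. From these levels a fall as large as that in P2 could not be measured in P1. Slfn4, S100a9 and Oas1a rose in P2 and had differences to P1 that did not pass (1.61, 1.41 and 0.54). In P1 itself 127 genes were called (0.637%), 112 rises (0.562%) and 15 falls (0.0752%). The overlap of calls was 45 rises, 22.2% of the P2 list and 40.2% of the P1 list, and 9 falls, 4.52% of the P2 list and 60.0% of the P1 list. P1 had 2 DNFB arrays.

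Against dermal CD11b+ dendritic cells, 50 genes differed in their DNFB difference (0.251% of those tested), 24 with the more positive change in P2 (0.120%) and 26 with the more negative (0.130%), and 1210 had an unadjusted p under 0.05. Cyp7b1, an oxysterol hydroxylase gene, changed by -0.03 in P2 and 3.88 in dendritic cells, and Kit, a growth factor receptor gene, by 0.14 in P2 and 3.40 in dendritic cells. Ffar2 changed by 1.03 in P2 and 4.05 in dendritic cells, and Sema7a by -0.40 in P2 and 2.53 in dendritic cells. Ccl17 changed by -1.47 in dendritic cells and differed by -2.85 ± 0.43 (limma's adjusted p = 0.00083). These 5 genes and Cxcl5 kept the call whichever array was left out.

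The genes more positive in P2 included S100a9 (4.32 in P2, 0.52 in dendritic cells), Slfn4 (3.22 and 0.47) and Saa3 (2.90 and 0.29). Pf4 changed by 0.84 in P2 and -2.52 in dendritic cells, and the complement gene C1qc by 0.29 in P2 and -2.72 in dendritic cells, where P2's own change passed no test. Each of these 5 calls was lost in at least 1 of the leave-one-out fits. In dendritic cells 830 genes were called (4.16%), 420 rises (2.11%) and 410 falls (2.06%). Calls in common were 100 rises, 49.3% of the P2 list and 23.8% of the dendritic cell list, and 87 falls, 43.7% of the P2 list and 21.2% of that list. Oas1a changed by 2.22 in P2 and 2.66 in dendritic cells, and Ifit3 by 2.93 in P2 and 3.72 in dendritic cells, with neither difference called.

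**Figure D5:**
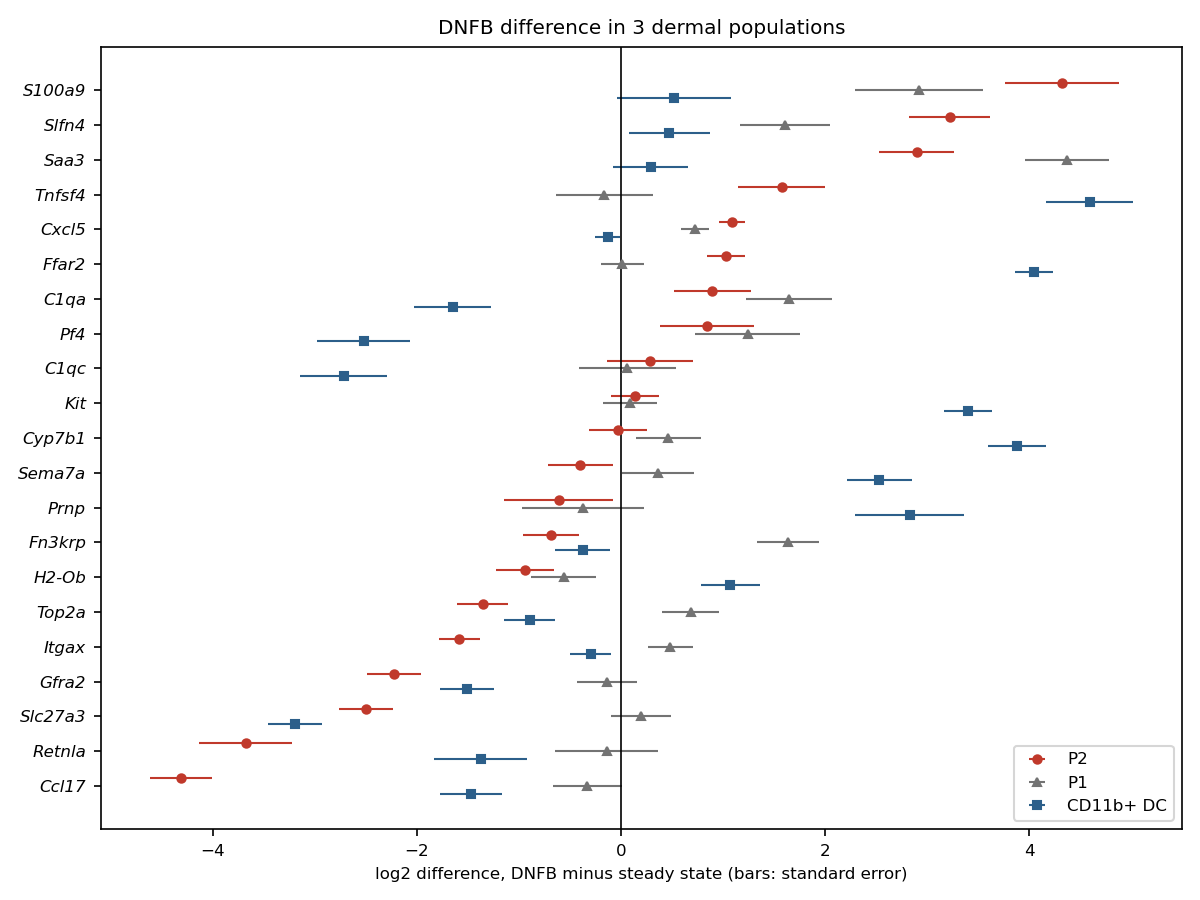
Log2 difference, DNFB minus steady state, with standard errors for P2 (red circles), P1 (grey triangles) and CD11b+ dendritic cells (blue squares), for named genes whose difference in P2 differs from that in P1 or in dendritic cells. Ccl17 has -4.31 in P2, -0.33 in P1 and -1.47 in dendritic cells.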

How the data were processed

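RNA of sorted cells was amplified, labelled and hybridised to Affymetrix Gene 1.0 ST arrays. The deposited values are log2 intensities that the authors made with RMA and affy, per the submitters' processing notes (versions not given in the sources used here). Chip batches were not assigned to arrays in the labels, so no batch could be fitted. Of 34760 probe sets, 21640 carried 1 gene symbol, 1321 several and 11799 none, and 21553 of the named ones matched a RefSeq gene. Each of 19937 genes was taken at its probe set of highest mean. limma 3.58.1 in R 4.3.3 fitted 1 mean per group over 38 arrays with moderated variances (25 residual and 3.13 prior degrees of freedom), and Benjamini-Hochberg adjustment ran over all genes at 0.05. The method was also run on simulated data in which a gene had the same spread in every group. That run cannot show how the method performs where the spread differs between groups.

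Members and gene lists (44, of which 13 mark other cell types) were chosen with earlier results of these data known. Named genes were, by rule, up to 15 rises and 15 falls by size, 5 per list by adjusted p, 6 per direction of each difference of differences, and the sort markers. Arg1, Chil3, Ly6g and Mrc1 fall outside this rule and were added after their values were seen. With 3 arrays against 3 the smallest two-sided permutation p is 0.1, so no such test was used. Replicate numbers were not taken to pair the arrays in the main fit. Same-numbered P2 arrays deviated from their group means with correlations of -0.264, -0.0454 and -0.0972. Deviations from a mean of 3 arrays are tied to each other, so these correlations cannot exclude a pairing. Alternatives were 2 blocks, scaling, filtering, probe-set averaging, variance models, array weights, fewer groups, other-cell covariates, a 2-fold minimum and leaving out arrays.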

Additional observations from a re-analysis of the deposited data

Results flagged for a closer look

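The DNFB difference of some genes differed between P2 and another dermal population under the same treatment, by a test of the difference itself. Values are log2 differences of differences. Compared with P1, the change in P2 was more negative for Ccl17 (-3.98), Retnla (-3.54), Slc27a3 (-2.70), Fn3krp (-2.32), Gfra2 (-2.09), Itgax (-2.07) and Top2a (-2.04). The steady-state P1 levels of Ccl17 and Retnla, given above, were too low for P1 to show a fall of the size seen in P2. Compared with CD11b+ dendritic cells, it was more negative for Cyp7b1 (-3.91), Prnp (-3.44), Kit (-3.26), Ffar2 (-3.02), Tnfsf4 (-3.02), Sema7a (-2.93), Ccl17 (-2.85), H2-Ob (-2.01) and Itgax (-1.285). It was more positive for S100a9 (3.81), Pf4 (3.36), C1qc (3.00), Slfn4 (2.75), Saa3 (2.60), C1qa (2.55) and Cxcl5 (1.22). With 1 array left out, 3 of the 7 differences from P1 kept the call in every fit (Ccl17, Itgax, Slc27a3) and 6 of the 16 from dendritic cells did (Ccl17, Cxcl5, Cyp7b1, Kit, Ffar2, Sema7a). The other calls, those of Prnp, Tnfsf4, H2-Ob, Itgax, S100a9, Pf4, C1qc, Slfn4, Saa3 and C1qa against dendritic cells among them, were lost in at least 1 fit.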

How the results depend on the processing

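No named gene called in P2 changed direction under any alternative run. The count of P2 calls was 402 as reported, 466 after quantile normalization and 337 with array medians centred. It fell to 80 when only the compared groups were fitted, where 36 of 96 named calls were kept, to 165 with the other-cell covariates and to 263 at a 2-fold minimum. Leaving out 1 array gave 241 to 436, with 241 without DNFB replicate 2 and 251 without DNFB replicate 3, and 52 named calls were kept in every such fit. The difference from P1 gave 11 calls, 1 with only the compared groups and 4 to 67 with 1 array left out. With covariates it gave 66 (46 more positive, 20 more negative). Values there were 67 without P1 steady-state replicate 2, 5 without P1 steady-state replicate 3 or P2 steady-state replicate 1, 4 and 24 without P1 DNFB replicates 1 and 2, and 23 and 7 without P2 DNFB replicates 1 and 2. The difference from dendritic cells gave 50 calls (24 more positive, 26 more negative), 40 with medians centred (24 and 16), 22 with only the compared groups, 83 with array weights and 24 to 72 with 1 array left out. It gave 33 and 32 without P2 steady-state replicates 2 and 3, 29 without P2 DNFB replicate 2, 32 without dendritic cell steady-state replicate 3 and 24 without dendritic cell DNFB replicate 1. With the replicate number as a block the counts were 416, 10 and 52. The block ended the P2 calls of Tnfsf4, Il7r and Eomes and the dendritic cell differences of Itgax and Prnp, and no other named call. Arrays of different populations share numbers in their source names. With that number as a random block the counts were 408, 11 and 62, and no named call was lost. The cause of these movements was not tested. Type I interferon rises numbered 5 with only the compared groups and 8 to 14 with 1 array left out. Signals below 4.31 give no reliable level.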

Other observations

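Gene families were counted by symbol after their values were seen, so the counts are descriptions. Of 11 Oas genes 4 rose and 1 fell, of 8 Ifi200 genes 4 rose, of 7 Schlafen genes 3 rose, of 7 Ifitm genes 3 rose and of 4 Ifit genes 3 rose. Of 19 Ms4a genes, a family of membrane proteins, 4 rose and none fell. With array medians centred the rises numbered 4 for Oas, 2 for Ifi200, 3 for Schlafen, 2 for Ifitm, 3 for Ifit and 3 for Ms4a. With 1 P2 array left out the rises ranged over 4 to 5 for Oas, 1 to 4 for Ifi200, 3 to 4 for Schlafen, 1 to 2 for Ifitm, 2 to 4 for Ifit and 2 to 4 for Ms4a, so the 3 Ifitm rises were found in none of these fits. With the 6 P2 arrays alone they numbered 3 for Oas, 1 for Ifi200, 2 for Schlafen, 2 for Ifitm, 1 for Ifit and 1 for Ms4a. Members of these families are similar in sequence, and their probes may share signal.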
